A study of Mus musculus with 5 samples.

Results

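The genes followed here make amino acids or carry them into cells, and they are classical targets of the stress-induced transcription factor ATF4. They were chosen by name: Asns, Phgdh, Psat1, Psph, Shmt2, Mthfd2, Slc7a3, Slc7a5, Slc7a11 and Slc3a2, and all 10 were among the 23997 gene names of the table. RNA was sequenced from whole dissected cortices of C57BL/6 mouse embryos at E16, with 3 control libraries (MG15, MG16 and MG17) and 2 conditional knockout (cKO) libraries (MG18 and MG19). The labels give the controls as Uhrf1 +/- and the cKO as Uhrf1 -/-, and both groups carry Emx1Cre. Because this Cre acts in the dorsal telencephalon, interneurons, vessels and microglia of the same cortices keep the floxed exon. The values are FPKM, fragment numbers scaled to transcript length and to library depth, which allows comparison between genes as well as between libraries.

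ATF4 is made when the translation factor eIF2 is phosphorylated, for example by GCN2 when uncharged tRNA builds up or by PERK during stress of the endoplasmic reticulum. Its amount is set largely by translation, through short reading frames in the leader of its mRNA. ATF4 pairs with C/EBP proteins on a composite DNA element (CARE) and raises genes that make nonessential amino acids, feed one-carbon units into folate, import amino acids and charge tRNA. In the brain, serine is made largely by radial glia and astrocytes.

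Of the 10 genes, 7 stood higher in both cKO libraries than in every control, as did 14.5% of all genes tested. The 7 were led by a pair of transporters that are scarce in control cortex. The FPKM values of the serine synthesis enzymes did not separate by genotype. Slc7a3, a carrier of arginine and lysine, rose from 0.238 ± 0.117 FPKM (SD, n = 3) to 3.89 ± 0.963 FPKM (SD, n = 2). Slc7a11, the cystine-glutamate exchanger, rose from 0.169 ± 0.0537 to 0.614 ± 0.0407 FPKM at the unadjusted threshold of the study. Asns, Mthfd2, Slc7a5, Shmt2 and Slc3a2 had cKO means of 1.45 to 1.83 times the control means. For Phgdh and Psat1 the cKO means were 99.4% and 97.4% of the control means.

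The composite element was searched for in RefSeq promoter windows of GRCm38.p6, which run from 250 bases before to 50 after the annotated start. A window was held for 8 of the 10 genes. The letters searched were TGATGNAA on both strands. They stood in the windows of Asns and Slc7a11 and not in those of Phgdh, Psat1, Psph, Shmt2, Mthfd2 and Slc3a2, while 3.97% of all 32851 windows held a match. The stretches around the matches are shown because one belongs to the asparagine enzyme and one to a transporter that rose, beside that of Chac1, a glutathione-degrading enzyme and ATF4 target outside the 10 genes. Of 4 such outside genes searched, Chac1 and Trib3 held a match, the latter inside the transcript, and Atf4 and Ddit3 held none. They are written 5′ to 3′ on the strand of the gene, with the matched letters in capitals.
Asns, chr6:7693210-7693257, minus strand: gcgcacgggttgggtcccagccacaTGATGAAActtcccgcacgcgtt
Slc7a11, chr3:50443638-50443704, minus strand: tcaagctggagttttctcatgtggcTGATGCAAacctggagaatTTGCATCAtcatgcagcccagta
Chac1, chr2:119351024-119351071, plus strand: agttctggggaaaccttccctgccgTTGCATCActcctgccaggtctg

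In Asns the match ran from 23 to 16 bases before the start. Slc7a11 held 2 matches in opposite orientation, at 66 to 59 and at 47 to 40 bases before the start. The start of that window lies inside the annotated span of Slc7a11, from 50364936 to 50499087, and not at its outer end. In Chac1 the match lay at 193 to 186 bases before the start, on the other strand. The palindromic cyclic AMP element TGACGTCA, which some ATF dimers bind, was in 0 of the 8 genes' windows (1.79% of all windows). The antioxidant element TGACNNNGC, read by NRF2, stood in those of Asns, Phgdh and Psph (12.4% of all windows). Both were searched on both strands too, and a match of the antioxidant element can share letters with one of the composite element. A match describes the sequence and does not show that a factor was bound.

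The libraries were checked first. Uhrf1 read 7.24, 13.2 and 13.0 FPKM in the controls against 2.75 and 2.61 FPKM in MG18 and MG19, as labelled. Neurod6, a transcription factor of cortical projection neurons, lay between 589 and 1013 FPKM in the 5 libraries, while 6 choroid plexus markers summed to at most 1.03 FPKM. The table holds no counts. Steps between the low values of 1636 long genes with a single transcript gave a rough depth of 16000000, 10000000 and 10000000 fragments for MG16, MG17 and MG19. The depth kept was the one that put the largest share of such values within 0.25 of a whole fragment, 77.4% to 81.5%. Because the depth was chosen to make that share largest, the share does not test the depth. For MG15 and MG18 the share was 65.0% and 65.8%, so that their depth is left unknown.

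For the test, limma was applied to log2(FPKM + 0.1) over 14698 genes whose mean reached 0.1 FPKM, and p was adjusted over all of them. Every log2 fold change is cKO minus control on this scale, which understates changes of low genes. All 10 genes were tested, and the control mean alone reached 0.1 FPKM for each. The threshold of the study asks for an unadjusted p under 0.05 together with a change of over 2-fold. By limma, 2 of the 10 passed it upward (2.88% of all genes) and 0 downward (1.16% of all genes). At an adjusted p under 0.05, 1 was higher (1.10% of all genes) and 0 were lower (0.163% of all genes). With no bound on the fold, 7 were higher at an unadjusted p under 0.05 (6.37% of all genes) and 0 were lower (5.17% of all genes). The same 7 had both cKO libraries above all controls (14.5% of all genes), and 0 had both below (16.3% of all genes). The median log2 fold change of the 10 was 0.65, against -0.02 for all genes tested. With 3 libraries against 2, a two-sided exact permutation test of a single gene cannot give a p below 0.1.

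**Figure D1:**
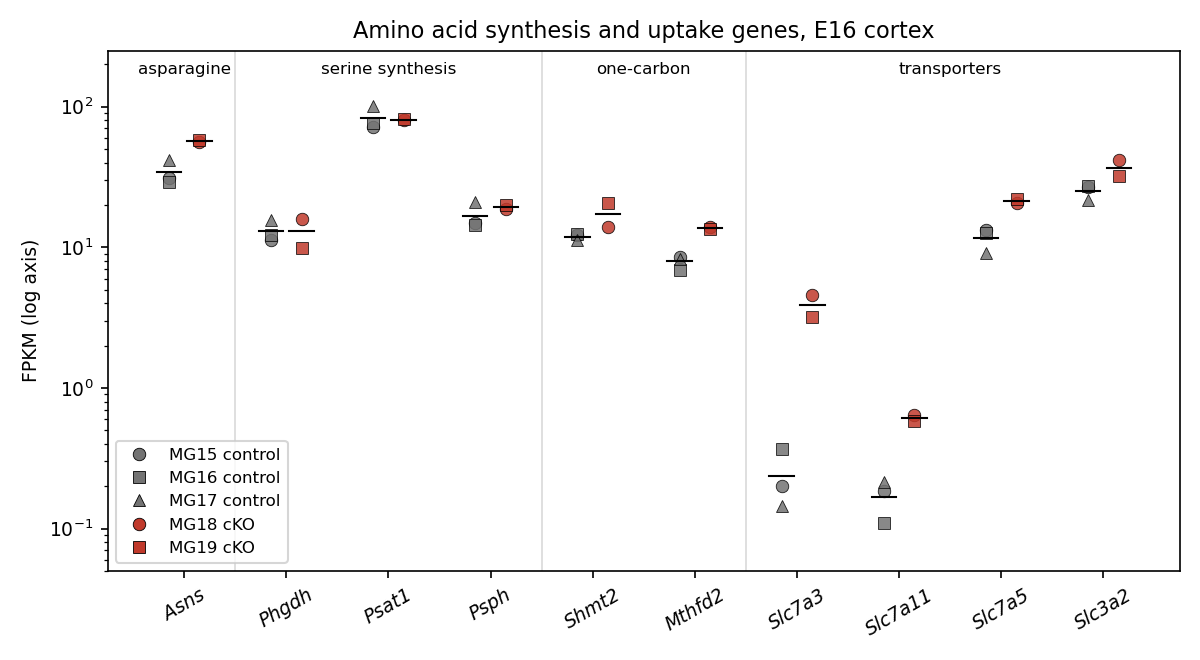
FPKM (vertical log axis) of the 10 genes (horizontal axis, grouped by role) in the 3 control libraries (grey) and the 2 cKO libraries (red), with 1 symbol per library and a black line at each group mean. For Asns, Shmt2, Mthfd2 and the 4 transporters both red points lie above all grey points, and for Phgdh, Psat1 and Psph the groups overlap.

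The cationic amino acid carrier Slc7a3 showed the largest log2 fold change among the 10. It lies on the X chromosome from 101079146 to 101090452 of GRCm38. The controls read 0.1999, 0.369 and 0.144 FPKM, and MG18 and MG19 read 4.57 and 3.21 FPKM. Both cKO libraries thus lay far above the highest control. The cKO mean was 16.4 times the control mean, and the log2 fold change was 3.60 (SE 0.38, adjusted p = 0.00141, limma), a value that 55 of the 14698 genes exceeded. With a pseudocount of 1 it was 1.97, and with 0.01 it was 4.06. The multiple is loosely held, since the values of Slc7a3 stand for roughly 13.6 and 3.32 fragments in MG16 and MG17 and for 73.8 in MG19. With MG18 left out the adjusted p of Slc7a3 was 0.113, and with MG19 left out it was 0.0917.

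Slc7a3 is X-linked, and each group held libraries with and without the Y-linked transcript Ddx3y. That transcript read 19.4 and 21.8 FPKM in MG15 and MG17 and 13.3 FPKM in MG18, against 0.0141 FPKM in MG16 and a listed 0 in MG19. Xist, the RNA of the inactive X chromosome, read 0.0252 and 0.0812 FPKM in MG15 and MG17, 66.6 FPKM in MG16 and 96.3 FPKM in MG19. MG18 held Ddx3y and also Xist at 3.84 FPKM, above the other libraries with Ddx3y, so that it does not match a single sex cleanly. Slc7a3 was high in both cKO libraries. The related carrier Slc7a1, the widespread member of the same family, read 10.5, 11.98 and 6.64 FPKM in the controls and 12.6 and 14.6 FPKM in MG18 and MG19. Its groups did not overlap, and its log2 fold change was 0.52 (adjusted p = 0.467, limma). Within each library Slc7a3 was 0.0190, 0.0308 and 0.0217 times the level of Slc7a1 in the controls, and 0.362 and 0.219 times in the cKO.

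Slc7a11, on chromosome 3 from 50364936 to 50499087, imports cystine for glutathione synthesis in exchange for glutamate. The controls read 0.184, 0.109 and 0.213 FPKM, and MG18 and MG19 read 0.643 and 0.585 FPKM. The cKO libraries lay close together and above all controls, still at a low level beside the median of 9.02 FPKM over all genes tested. The cKO mean was 3.63 times the control mean, and the log2 fold change was 1.43 (SE 0.41, adjusted p = 0.218, limma). With a pseudocount of 1 it was 0.47, and Slc7a11 no longer passed the threshold of the study.

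Slc7a11 is also a known target of the oxidative stress factor NRF2, so 18 other NRF2 targets were listed. Of 17 tested by limma, 0 passed the threshold of the study in either direction (2.88% of all genes upward and 1.16% downward). At an unadjusted p under 0.05, 1 was higher and 0 were lower (6.37% and 5.17% of all genes). The higher gene was Hmox1, named because of its value. Hmox1 read 1.53, 1.39 and 1.65 FPKM in the controls and 4.04 and 1.89 FPKM in MG18 and MG19. Its log2 fold change was 0.82 (adjusted p = 0.399, limma). Of the 17 differences, 10 lay above 0 (47.8% of all genes) and 7 below. The median log2 fold change of the 17 was 0.09. Ftl1, the ferritin light chain, and Taldo1, of the pentose phosphate pathway, had log2 fold changes of 0.08 and -0.24.

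Slc7a5 and Slc3a2 together form the large neutral amino acid exchanger that brings leucine into cells, with Slc7a5 as the transporting chain and Slc3a2 as the heavy chain that carries it to the membrane. Slc3a2 also pairs with Slc7a11. Slc7a5, on chromosome 8 from 121881146 to 121907686, read 13.3, 12.7 and 9.15 FPKM in the controls and 20.8 and 22.1 FPKM in MG18 and MG19. The groups did not overlap, and the log2 fold change was 0.88 (SE 0.20, adjusted p = 0.0877, limma), with a 95% interval from 0.43 to 1.33.

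Slc3a2, on chromosome 19 from 8706882 to 8723369, read 26.8, 27.4 and 21.6 FPKM in the controls and 41.6 and 31.9 FPKM in MG18 and MG19. MG19 lay nearer to the controls than MG18 did. The log2 fold change was 0.53 (SE 0.18, adjusted p = 0.310, limma), or 0.34 with MG18 left out and 0.73 with MG19 left out. Slc7a5 was 0.496, 0.465 and 0.423 times the level of Slc3a2 in the controls, and 0.499 and 0.692 times in the cKO. In MG18 that ratio was barely above that of MG15.

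Asns makes asparagine from aspartate and glutamine and lies on chromosome 6 from 7675165 to 7693209. The controls read 31.0, 29.3 and 42.1 FPKM, and MG18 and MG19 read 55.7 and 58.3 FPKM. Both cKO libraries lay close together and exceeded the highest control, MG17. The cKO mean was 1.67 times the control mean, and the log2 fold change was 0.76 (SE 0.19, adjusted p = 0.126, limma), with a 95% interval from 0.34 to 1.17. With the control MG17 left out the adjusted p of Asns was 0.0240, and with any other library left out it lay between 0.351 and 0.517.

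The mitochondrial one-carbon enzymes Shmt2 and Mthfd2 also stood higher in both cKO libraries. Shmt2, which splits serine into glycine and a one-carbon unit on folate, lies on chromosome 10 from 127517123 to 127522444. It read 12.1, 12.4 and 11.3 FPKM in the controls and 13.9 and 20.7 FPKM in MG18 and MG19. The cKO libraries differed from each other more than the controls did. The log2 fold change of Shmt2 was 0.50 (SE 0.20, adjusted p = 0.390, limma) with both, 0.79 with MG18 left out and 0.22 with MG19 left out. Its cytosolic counterpart Shmt1 read 5.11, 5.36 and 6.36 FPKM in the controls and 5.28 and 5.14 FPKM in MG18 and MG19, a log2 fold change of -0.10 with overlapping groups.

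Mthfd2 passes that unit on toward formate and is low in most adult tissues. It lies on chromosome 6 from 83305704 to 83326011. The controls read 8.57, 6.93 and 8.32 FPKM, and MG18 and MG19 read 13.8 and 13.4 FPKM. The cKO values were nearly equal and above all controls. The log2 fold change was 0.78 (SE 0.18, adjusted p = 0.1003, limma), and it lay between 0.68 and 0.83 when any 1 library was left out. Mthfd2l, a paralog with a like activity in mitochondria, read 16.1, 14.8 and 20.6 FPKM in the controls and 13.0 and 17.0 FPKM in MG18 and MG19, a log2 fold change of -0.19. Mthfd2 was 0.533, 0.467 and 0.404 times the level of Mthfd2l in the controls, and 1.06 and 0.789 times in the cKO.

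The 3 enzymes that make serine from a glycolytic intermediate did not differ beyond the spread between libraries. Phgdh, the first and committed step, on chromosome 3 from 98313171 to 98339969, read 11.2, 12.2 and 15.7 FPKM in the controls and 15.98 and 9.93 FPKM in MG18 and MG19. These cKO values were the highest and the lowest of the 5. The log2 fold change was -0.03 (SE 0.24), with a 95% interval from -0.57 to 0.51. Psat1, the aminotransferase of the second step, on chromosome 19 from 15905123 to 15925059, read 71.2, 76.1 and 101 FPKM in the controls and 79.9 and 81.5 FPKM in MG18 and MG19. Its cKO values fell between those of MG16 and MG17, with a log2 fold change of -0.02 (SE 0.18) and a 95% interval from -0.44 to 0.39. The sign of the Phgdh value turned with the library left out, and that of Psat1 with the library left out or with quantile normalization.

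Psph, the phosphatase that releases serine, lies on chromosome 5 from 129765558 to 129787443. It read 14.99, 14.5 and 21.0 FPKM in the controls and 18.8 and 20.1 FPKM in MG18 and MG19, so that MG17 alone among the controls exceeded the cKO. The log2 fold change was 0.23 (SE 0.20, adjusted p = 0.668, limma), with a 95% interval from -0.21 to 0.67. A 2-fold difference in either direction lies outside the intervals of Phgdh, Psat1 and Psph.

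The enzymes can also be set against each other within a library, where scaling plays no part. Asns was 0.435, 0.385 and 0.415 times the level of Psat1 in the controls, and 0.696 and 0.715 times in the cKO. Phgdh was 0.157, 0.160 and 0.155 times the level of Psat1 in the controls, and 0.1999 and 0.122 times in the cKO, on both sides of the controls. Psph was 0.210, 0.190 and 0.207 times the level of Psat1 in the controls, and 0.235 and 0.247 times in the cKO, above all controls. All ratios given here were chosen after the values were seen and carry no test.

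**Figure D2:**
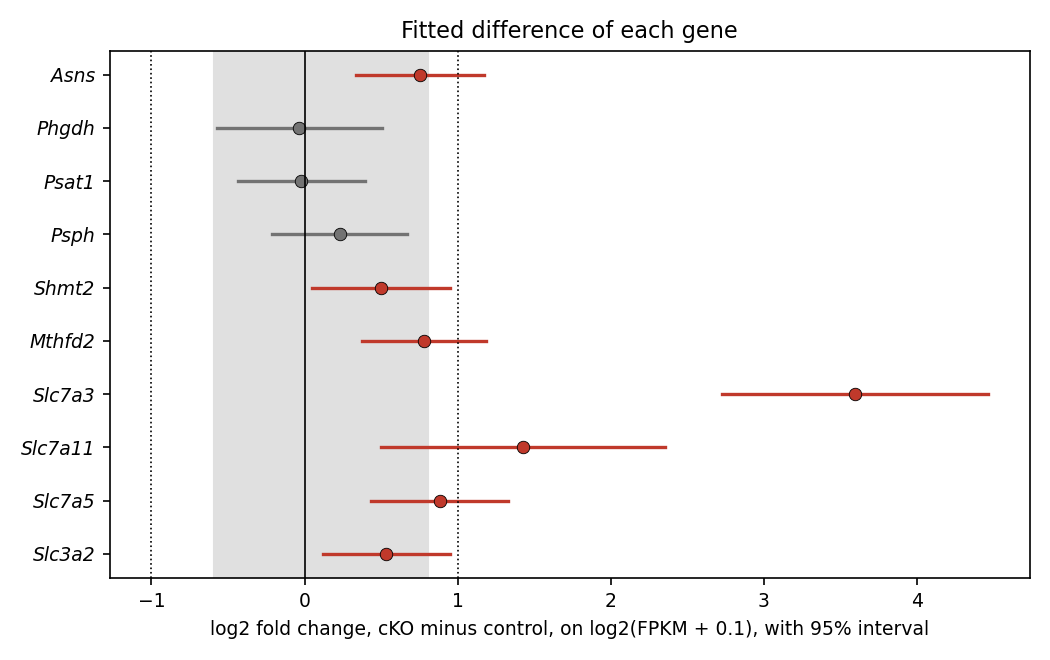
Log2 fold change (horizontal axis, cKO minus control on log2(FPKM + 0.1)) of the 10 genes with the 95% interval from limma, where red marks genes whose cKO libraries both lie above all controls. The grey band holds the central 90% of all genes tested, from -0.59 to 0.81, and dotted lines mark 2-fold. Slc7a3, Slc7a11 and Slc7a5 lie beyond the band.

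In order of level over both genotypes pooled, the mean over the 5 libraries was highest for Psat1 at 82.0 FPKM, followed by Asns at 43.3, Slc3a2 at 29.9, Psph at 17.9, Slc7a5 at 15.6, Shmt2 at 14.1, Phgdh at 13.0 and Mthfd2 at 10.2 FPKM. Slc7a3 at 1.70 and Slc7a11 at 0.347 FPKM came last. Apart from Psat1, which lay above the other 9 in every library, each gene's range over the libraries overlapped that of a neighbour in this order. The order of the middle genes changed with genotype. By control means Phgdh (13.0) lay above Shmt2 (11.9) and Slc7a5 (11.7), whereas by cKO means Slc7a5 (21.4) lay above Psph (19.5) and Mthfd2 (13.6) above Phgdh (12.96). Summed by role, the 4 transporters lay between 31.1 and 40.6 FPKM in the controls and between 57.8 and 67.6 FPKM in the cKO. The serine enzymes lay between 97.4 and 138 FPKM in the controls and between 112 and 115 FPKM in the cKO, so that those sums overlapped.

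Other transporters of amino acids were taken as a list of 47 genes, of which 35 were tested. Slc1a5, Slc6a9 and Slc38a4 passed the threshold of the study upward (2.88% of all genes), and 0 passed it downward by limma. At an unadjusted p under 0.05, 7 were higher and 0 lower (6.37% and 5.17% of all genes). Slc1a5, an exchanger of glutamine and other neutral amino acids, read 1.27, 1.80 and 1.90 FPKM in the controls and 5.43 and 5.08 FPKM in MG18 and MG19. Its log2 fold change was 1.63 (SE 0.26, adjusted p = 0.0159, limma), and the adjusted p was 0.283 with MG18, 0.271 with MG19 and 0.0506 with MG15 left out. Slc6a9, a glycine transporter, read 1.19, 1.42 and 0.644 FPKM in the controls and 3.87 and 2.86 FPKM in MG18 and MG19, a log2 fold change of 1.59 (adjusted p = 0.0827). For Slc38a4 the log2 fold change was 1.05 (adjusted p = 0.299), and it no longer passed with MG15 or MG18 left out, with quantile normalization (0.84) or with a pseudocount of 1 (0.57). In 16 of the 35, or 45.7%, both cKO libraries lay above all controls, and in 0 below, against 14.5% and 16.3% of all genes. Of the 16, Slc6a20a had a control mean of 0.0719 FPKM, below the filter of 0.1 FPKM, and was tested only because of its cKO values. The median log2 fold change of the list was 0.25.

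Other enzymes of the same pathways were taken as further lists. Over all genes, 2.88% passed the threshold of the study upward and 1.16% downward, and 6.37% were higher and 5.17% lower at an unadjusted p under 0.05. Of 21 other serine, glycine and folate genes tested by limma, 0 passed the threshold of the study, with 2 higher and 1 lower at an unadjusted p under 0.05 and a median log2 fold change of -0.12. In 3 of the 21 both cKO libraries lay above all controls and in 4 below, against 14.5% and 16.3% of all genes. Dld, a subunit of the glycine cleavage system, and Sfxn1, the mitochondrial serine carrier, had log2 fold changes of -0.37 and 0.18. Mthfd1l, which releases formate in mitochondria and is named because of its values, read 2.52, 1.75 and 2.20 FPKM in the controls and 3.48 and 3.27 FPKM in MG18 and MG19, a log2 fold change of 0.64 (adjusted p = 0.389). Of 22 other amino acid synthesis genes, 1 passed upward and 0 downward by limma, with 2 higher and 4 lower at an unadjusted p under 0.05 and a median of -0.06. In 3 of the 22 both cKO libraries lay above all controls and in 8 below, beside the same shares over all genes. The gene that passed was Gls2, a glutaminase, at 0.127, 0.0562 and 0.0875 FPKM in the controls and 0.425 and 0.263 FPKM in MG18 and MG19. The control mean of Gls2, 0.0902 FPKM, lay below the filter of 0.1 FPKM, so it was tested only because of its cKO values. Its log2 fold change was 1.22 (adjusted p = 0.375), and it no longer passed with MG16 or MG18 left out, with quantile normalization (0.93) or with a pseudocount of 1 (0.30). Mat2a and Glul, which make S-adenosylmethionine and glutamine, had log2 fold changes of -0.15 and 0.14.

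**Figure D3:**
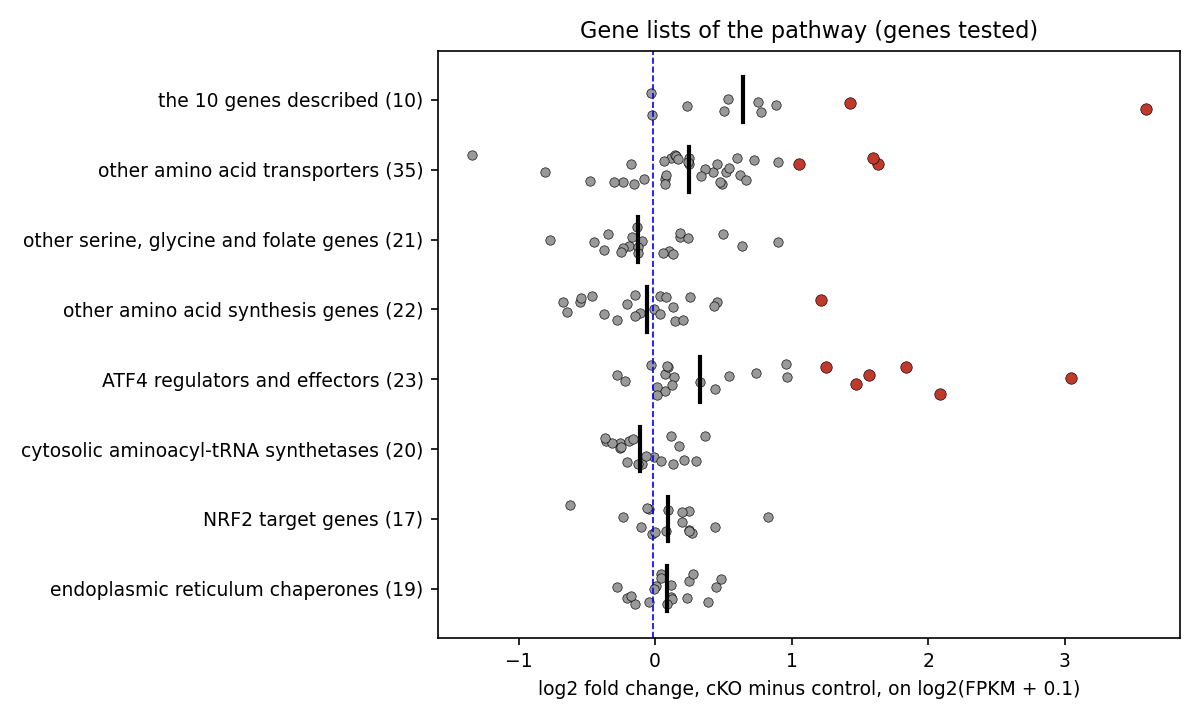
Log2 fold change (horizontal axis, cKO minus control on log2(FPKM + 0.1)) of each tested gene in 8 lists, with the number of genes tested in brackets, where red marks genes past an unadjusted p of 0.05 and 2-fold, black bars mark list medians and the dashed line marks the median of all genes. Red points stand in the lists of the 10 genes, of other transporters, of other synthesis genes and of ATF4 regulators, and the other 4 lists hold none.

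The mRNA of Atf4 itself read 101, 92.2 and 99.8 FPKM in the controls and 96.7 and 100.2 FPKM in MG18 and MG19. Its groups overlapped, and the log2 fold change was 0.01 (SE 0.15), with a 95% interval from -0.33 to 0.35. A list of regulators and effectors of the ATF4 response, which holds the eIF2 kinases and Atf4, gave 23 tested genes. Of these, 6 passed the threshold of the study upward and 0 downward by limma (2.88% and 1.16% of all genes). With no bound on the fold, 7 were higher and 0 lower at an unadjusted p under 0.05 (6.37% and 5.17% of all genes). In 9 of the 23 both cKO libraries lay above all controls and in 1 below, against 14.5% and 16.3% of all genes. At an adjusted p under 0.05, 3 were higher, and 0 with MG18 or MG19 left out. Over all genes, 1.10% were higher at that adjusted p. The median log2 fold change of the list was 0.33. With a pseudocount of 1 or a filter at a mean of 1 FPKM, 3 passed the threshold of the study upward.

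Eif4ebp1, an inhibitor of cap-dependent translation, read 2.66, 2.19 and 2.97 FPKM in the controls and 12.1 and 10.6 FPKM in MG18 and MG19, and differed by 2.09 on the log2 scale (SE 0.22, adjusted p = 0.00128, limma). Chac1, whose promoter stretch is shown above, read 1.08, 1.20 and 1.13 FPKM in the controls and 3.97 and 4.70 FPKM in MG18 and MG19, a log2 fold change of 1.84 (adjusted p = 0.00666). Trib3, a pseudokinase that restrains ATF4, read 0.0691, a listed 0 and 0.115 FPKM in the controls and 1.22 and 1.13 FPKM in MG18 and MG19. Its log2 fold change was 3.05 (adjusted p = 0.0129), 1.04 with a pseudocount of 1 and 4.68 with 0.01, where the adjusted p was 0.130. The control mean of Trib3, 0.0615 FPKM, lay below the filter of 0.1 FPKM, so it was tested only because of its cKO values. It is counted among the genes of the list past both thresholds. Sesn2, a leucine sensor that inhibits mTORC1, had a log2 fold change of 1.47 (adjusted p = 0.147), or 0.85 with a pseudocount of 1. Ddit3 (CHOP), named because of its value, read 14.8, 11.5 and 13.2 FPKM in the controls and 12.4 and 14.1 FPKM in MG18 and MG19, a log2 fold change of 0.01.

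Among other known ATF4 targets are some of the aminoacyl-tRNA synthetases, which charge tRNA with amino acids. The list of 20 cytosolic synthetases was not restricted to known ATF4 targets, so its counts do not describe the targets alone. Of these 20, tested by limma, 0 passed the threshold of the study and 0 reached an unadjusted p under 0.05 in either direction. Over all genes, 6.37% were higher and 5.17% lower at that p. Of the log2 fold changes of the synthetases, 7 lay above and 13 below 0, with a median of -0.11. Sars and Gars, for serine and glycine, had values of -0.25 and 0.11. Of 19 chaperones and other genes of the endoplasmic reticulum stress response, 0 passed and 0 reached an unadjusted p under 0.05 by limma, with a median of 0.09. Calr and Canx, lectin chaperones, had log2 fold changes of -0.05 and 0.04.

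Cell type markers also differed between the groups. Their counts stand beside 6.37% of all genes higher and 5.17% lower at an unadjusted p under 0.05. Past the threshold of the study these shares were 2.88% upward and 1.16% downward. In bulk RNA, fewer cells of a type and less RNA per cell cannot be told apart. By immunostaining at an earlier embryonic stage, the study reported comparable numbers of neural stem cells and progenitors in both genotypes. It also reported more dying cells, marked by TUNEL, in the cKO cortex throughout embryonic development. These included cells with and without the stem cell protein Pax6. The part of cell death in the values here was not tested. Radial glia markers, among them Fabp7 (log2 fold change -0.52) and Vim (-0.24), summed to between 1557 and 2182 FPKM in the controls and between 1229 and 1472 FPKM in the cKO. Without Fabp7, the most abundant, the sums overlapped, at 537 to 703 FPKM and 500 to 573 FPKM. By limma 0 of these 11 passed the threshold of the study, with 0 higher and 3 lower at an unadjusted p under 0.05. The 5 markers of intermediate progenitors, which include Eomes (-0.79) and Neurog2 (-0.69), summed to between 115 and 187 FPKM in the controls and between 96.8 and 103 FPKM in the cKO, with 0 past the threshold and 2 lower at an unadjusted p under 0.05.

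The 8 markers of the projection neuron lineage summed to between 1084 and 1306 FPKM in the controls and between 898 and 969 FPKM in the cKO, with 0 past the threshold and 1 lower at an unadjusted p under 0.05. That gap was carried by Neurod6 (-0.40), and without it the sums overlapped, at 293 to 416 FPKM and 286 to 379 FPKM. Neurod2, the next in level, had a log2 fold change of -0.28, while Tbr1, named because of its value, had one of 0.32 with both cKO libraries above all controls.

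Of 8 astrocyte markers, 3 were higher and 0 lower at an unadjusted p under 0.05, with a median log2 fold change of 0.37. Gfap alone passed the threshold of the study (log2 fold change 2.37, adjusted p = 0.0362, limma). Its adjusted p was 0.104 with MG16 and 0.0701 with MG17 left out. It was 0.0891 with no filter, 0.0863 with no trend on the mean, 0.0762 with a pseudocount of 0.01 and 0.0643 with quantile normalization. With MG15 left out, median-ratio scaling, a filter at 1 FPKM or a pseudocount of 1 it stayed under 0.05. With MG18 or MG19 left out the log2 fold change was 2.27 or 2.48. The summed level lay between 110 and 145 FPKM in the controls and between 98.3 and 135 FPKM in the cKO. Most of that sum was Aldoc (-0.39), and without it the sums were apart, at 30.01 to 34.2 FPKM in the controls and 40.0 to 49.1 FPKM in the cKO. Id3 had a log2 fold change of 0.30. The study reported Gfap staining as absent at E16 in both genotypes. It saw Gfap mildly raised in sequenced RNA of the E16 ventricular zone but detected no transcripts by RT-qPCR.

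Markers from outside the Emx1 lineage were examined in the same way. The sums of 10 meningeal and fibroblast genes lay between 15.5 and 17.6 FPKM in the controls and between 26.6 and 29.4 FPKM in the cKO, with 4 higher and 0 lower at an unadjusted p under 0.05 and a median log2 fold change of 0.73. Col1a1 (1.64) and Lum (1.07) passed the threshold of the study. Neither did so with a pseudocount of 1, with quantile normalization or with MG17 left out, nor Col1a1 with MG16 or MG19 left out, nor Lum with MG15 or MG18 left out. The sums of 8 microglia genes lay between 21.7 and 39.5 FPKM in the controls and between 40.8 and 46.1 FPKM in the cKO, with 0 past the threshold, 3 higher and 0 lower at an unadjusted p under 0.05 and a median of 0.58. C1qb and C1qa, complement chains and the most abundant of these, had log2 fold changes of 0.67 and 0.49.

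The sums of 16 genes of the ventral telencephalon and interneurons lay between 126 and 142 FPKM in the controls and between 146 and 234 FPKM in the cKO. Of 15 tested, 8 were higher and 1 lower at an unadjusted p under 0.05 (6.37% and 5.17% of all genes). Of the 15 differences, 14 lay above 0, against 47.8% of all genes. The median log2 fold change of 0.63 was close to the 0.65 of the 10 amino acid genes. Gsx2 (1.11) and Isl1 (1.88) passed the threshold of the study. Neither did so with MG15, MG16 or MG19 left out, with quantile normalization or with a pseudocount of 1, nor Gsx2 with MG18 or Isl1 with MG17 left out.

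Endothelial markers bear on Slc7a5 and Slc3a2, since brain vessels hold much of both proteins. Their sums overlapped, at 120 to 161 FPKM in the controls and 141 to 152 FPKM in the cKO. The largest part was Cldn5, a tight junction protein with a log2 fold change of -0.05, and without it the sums were apart, at 66.8 to 78.4 FPKM in the controls and 85.1 to 87.0 FPKM in the cKO. Of 9 tested by limma, 0 passed the threshold of the study and 1 was higher at an unadjusted p under 0.05. However, 8 differences lay above 0 (47.8% of all genes), and the median was 0.37. In 3 of the 9 both cKO libraries lay above all controls, against 14.5% of all genes. Slc2a1, the glucose transporter of the blood-brain barrier, read 26.0, 23.3 and 21.9 FPKM in the controls and 30.8 and 29.0 FPKM in MG18 and MG19, a log2 fold change of 0.33. Slco1a4 was the only endothelial marker listed at 0 in all 5 libraries.

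Blood markers summed to between 596 and 922 FPKM in the controls and between 450 and 509 FPKM in the cKO. Without Hbb-bs, the most abundant, the sums overlapped, at 162 to 471 FPKM and 139 to 236 FPKM. Of the 7 blood markers, Hba-a1 passed the threshold of the study upward and Hba-a2 downward, but these are near-identical copies whose reads cannot be told apart. Choroid plexus markers summed to between 0.725 and 1.03 FPKM in the controls and between 0.110 and 0.596 FPKM in the cKO. Of 2 tested, Aqp1 had a log2 fold change of -0.54 and Ttr passed downward (-1.52). Ttr no longer passed with MG18 left out (-0.37), with any control left out, with no filter, with no trend on the mean or with a pseudocount of 1. The part of these marker differences in the values of the 10 genes was not tested.

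**Figure D4:**
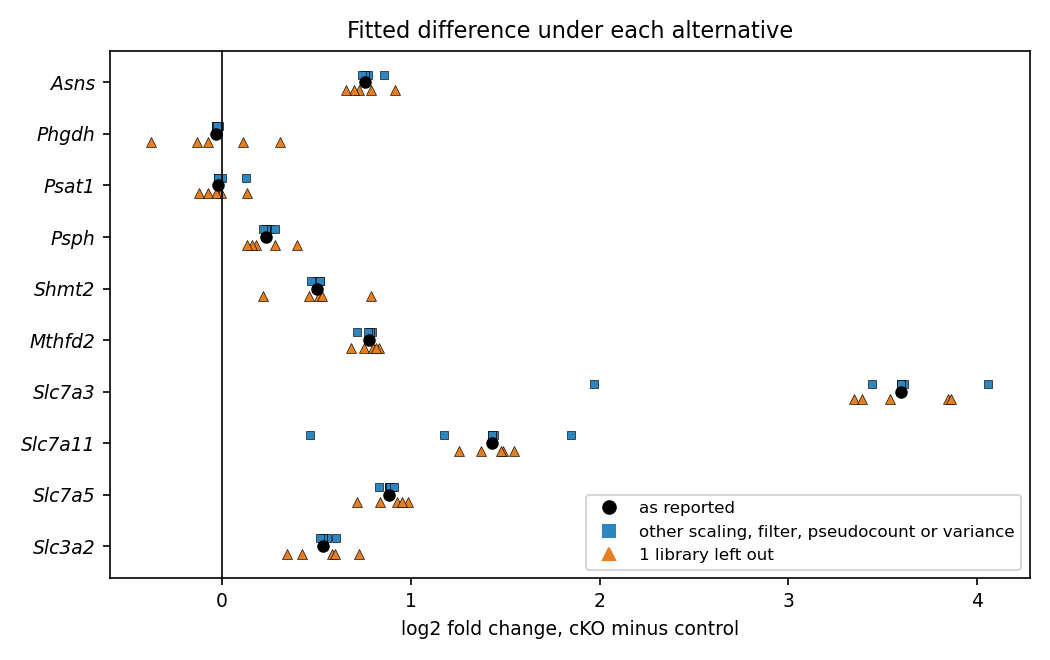
Log2 fold change (horizontal axis, cKO minus control) of the 10 genes as reported (black circles), under another pseudocount, filter, scaling or variance model (blue squares) and with 1 library left out (orange triangles). The values of Asns, Psph, Shmt2, Mthfd2 and the 4 transporters stay above 0 in all of these, and those of Phgdh and Psat1 lie on both sides of 0.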

How the data were processed

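Whole cortices of 3 control and 2 Uhrf1 cKO embryos were sequenced as paired 100-base reads from ribosome-depleted, strand-specific libraries. The authors deposited FPKM per gene and library, made by mapping to mm10 with TopHat2, dropping duplicates, poor alignments, improper pairs and reads with several placements, and running Cuffdiff and cummeRbund (versions: not given in the sources used here). Removing such reads makes the values of genes with close copies uncertain. Whether a library is 1 animal or a pool is not stated, although the study calls them biological replicates.

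Columns were matched to libraries by name. limma 3.58.1 in R 4.3.3 (eBayes with a trend, 6.23 prior degrees of freedom, no covariate) was applied to log2(FPKM + 0.1), leaving out 57 small RNA names that reached the mean of 0.1 FPKM. Adjusted p follows Benjamini and Hochberg over 14698 genes. The procedure was run on simulated data, where the genes given a change had higher control levels than Slc7a3 and Slc7a11. That run therefore does not test the procedure on genes as low as these. Depth was only estimated, so no counting intervals are given. Positions and promoter sequences come from RefSeq of GRCm38.p6.

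The 10 genes and the lists were chosen with earlier results of these data known. Named are all 10, Uhrf1, Atf4 and, of each other list, up to 4 genes past the threshold of the study with the smallest p, or the 2 with the highest mean where fewer than 2 passed. Otx2, which the rule also gives, was not tested and read at most 0.102 FPKM. Other genes were named after their values were seen, among them Slc7a1, Shmt1, Mthfd2l, Ddx3y and Xist. Alternatives were another pseudocount, filter, scaling or variance model, and leaving out each library. Python 3.11.15, pandas 2.3.3 and matplotlib 3.10.9 were used.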

Additional observations from a re-analysis of the deposited data

How the results depend on the processing

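Over 12 alternatives, the 7 genes whose groups were apart kept a positive log2 fold change in all 83 values computed. In a count chosen after seeing the data, 6 to 7 of the 10 were higher at an unadjusted p under 0.05 in each alternative. With a filter at a mean of 1 FPKM, at which Slc7a11 is not tested, 1 of the 10 passed the threshold of the study and the median log2 fold change was 0.53. With a pseudocount of 1, 1 passed, Slc7a11 (0.47) did not, and the median was 0.50. With 1 library left out, the number higher at an adjusted p under 0.05 was 0 without MG18 or MG19, where the lone cKO library is assumed to vary like the controls, and at most 2, without MG17, and the median lay between 0.59 and 0.77. The log2 fold change of Phgdh then lay between -0.37 and 0.31 (0.11 without MG17), and that of Psat1 between -0.12 and 0.13. With quantile normalization Psat1 stood at 0.12. Over all genes, 423 passed upward and 171 downward, against 321 and 288 with quantile normalization, 154 and 25 with a pseudocount of 1, 172 and 64 with the filter at 1 FPKM, and 438 and 309 without MG18. At an adjusted p under 0.05, 161 were higher and 24 lower, against 47 and 2 without MG18, 49 and 3 without MG19, 9 lower without MG15 and 10 lower without MG16. The cause of these changes was not tested beyond the smaller number of samples or genes. The median over all genes moved by less than 0.1 under each scaling. Low levels limit Slc7a3 and Slc7a11 most. No paired analysis was possible because the labels do not pair any cKO library with a control library.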
